A study of Mus musculus with 42 samples.

Results

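The collagen genes of the mouse heart field are described here from paired left and right libraries. They were taken as the protein-coding genes with a symbol made of Col, a number, the letter a and a number, and the rule found 44 genes among 21664 protein-coding genes and 56953 genes counted. RNA sequencing covered the microdissected heart field of mouse embryos at stage E8.5i, when the heart tube loops. Each embryo gave a left and a right library of polyadenylated RNA from this dissected region, which does not include the heart tube itself.

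The embryos carried either the wild-type alleles (*Ccdc40*+/+) or the lnks allele on both chromosomes (*Ccdc40*lnks/lnks). *Ccdc40* is needed for motile cilia and the lnks allele is a chemically induced nonsense mutation. By the labels, 5 wild types had rightward looping, 11 mutants had rightward looping and 5 mutants had inverted, leftward looping, which gave 21 embryos and 42 libraries. The laterality clusters of the study were not used as groups, as the labels do not give them and they were built from left-right differences of genes in these same libraries. Those clusters divide the mutants with rightward looping between normal and mixed (heterotaxy) laterality, so that the rightward group here pools both. Every mutant is a whole-embryo mutant, and each library holds several cell types, so that fewer cells of a type and less RNA per cell cannot be told apart.

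Library totals ranged from 36073684 to 62970327 counts. *Ccdc40* lay between 15.2 and 26.5 counts per 1000000 (CPM) in the wild types and between 8.83 and 14.8 CPM in the mutants, with no overlap. The second heart field was checked by *Isl1*, which lay between 51.8 and 139 CPM in the 42 libraries. Heart muscle transcripts were also present, with *Myl7* between 60.7 and 967 CPM.

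Collagens are extracellular proteins wound from alpha chains, each chain from its own gene. Fibrillar collagens (types I, II, III, V and XI among them) assemble into the cables that give connective tissue its strength, while type IV collagen forms the sheet-like network of basement membranes under epithelia, endothelium and heart muscle. Fibril-associated collagens decorate fibrils, transmembrane collagens sit in the cell surface, and the multiplexins XV and XVIII are carried by basement membranes. In the forming heart, collagens lie in the cardiac jelly and in the sheets of mesoderm around the foregut.

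Per exon length, *Col18a1*, which encodes the basement membrane multiplexin XVIII, was the most abundant collagen, with 104 ± 12.7 CPM per kb of exon (SD, n = 42 libraries). It was above the next gene, *Col1a1*, in 21 of 21 embryos when both sides were averaged. The level of *Col1a1*, the main chain of type I collagen, was 24.9 ± 10.9 CPM per kb, that of *Col2a1*, the chain of cartilage and notochord sheath collagen, was 23.8 ± 4.09 CPM per kb, and *Col1a1* was the higher of the pair in 11 of 21 embryos. *Col4a2* and *Col4a1*, the common basement membrane chains, followed with 20.5 ± 2.45 and 15.1 ± 2.49 CPM per kb, and *Col4a2* was the higher in 21 of 21 embryos. *Col3a1* of type III collagen (14.0 ± 4.07), *Col9a1* of fibril-associated type IX (10.97 ± 2.22) and *Col26a1* (8.18 ± 1.62 CPM per kb) came next. The partner chain of type I, *Col1a2*, had 7.58 ± 1.54 CPM per kb, and *Col4a5*, *Col5a2* and *Col5a1* had 7.45 ± 1.26, 6.30 ± 1.44 and 5.99 ± 1.32 CPM per kb.

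By class, the 2 multiplexins held 38.8% of the summed collagen level per kb, the 11 fibrillar collagens 31.6%, and the 6 type IV chains 17.2%. The 9 fibril-associated collagens held 6.09%, the 4 transmembrane collagens 2.03% and the 6 beaded-filament chains of type VI 1.04%. *Col26a1* and *Col28a1*, outside these classes, held 3.04%. The 3 short-chain network collagens held 0.163% and *Col7a1*, of the anchoring fibrils of skin, 0.0697%. The median collagen stood at 0.667 CPM per kb, far below the leading genes. On the CPM scale, 17 collagens had a mean above 10 CPM, 15 between 1 and 10 CPM and 12 under 1 CPM.

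Within the classes, a few chains dominated. Among the type IV chains, *Col4a6* had 3.13 CPM per kb, *Col4a4* 0.0914 and *Col4a3* 0.0529 CPM per kb, the last a pair of chains known from the kidney filter. Among the fibrillar collagens below *Col5a1*, *Col11a1* had 1.39, *Col11a2* 0.498, *Col27a1* 0.494, *Col24a1* 0.218 and *Col5a3* 0.0382 CPM per kb. Of the type VI chains, *Col6a1* had 1.67, *Col6a2* 0.965 and *Col6a3* 0.137 CPM per kb, and *Col6a4*, *Col6a5* and *Col6a6* lay at or under 0.0138 CPM per kb. The fibril-associated genes below *Col9a1* ran from *Col9a2* (1.58) and *Col9a3* (1.21) through *Col22a1*, *Col14a1*, *Col16a1* and *Col12a1* (0.751 to 0.514) to *Col20a1* (0.0428) and *Col19a1* (0.0102 CPM per kb). *Col13a1* and *Col23a1* led the transmembrane collagens with 2.74 and 2.27 CPM per kb, ahead of *Col25a1* (0.402) and *Col17a1* (0.0556 CPM per kb). *Col15a1*, the other multiplexin, had 0.128 CPM per kb. *Col8a2*, *Col8a1* and *Col10a1*, the short-chain collagens, had 0.315, 0.0998 and 0.0236 CPM per kb, and *Col28a1* had 0.0187 CPM per kb.

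Exact zeros occurred in 9 collagens, from 1 library (*Col17a1*, *Col20a1*) to 12 libraries (*Col6a4*, *Col6a6*). A count of 0 allows up to 3 counts, for counting error only. Exons of 27 collagens share bases with another annotated gene, and 6 of them share more than 5% with a single gene: *Col10a1* (20.8%, with *Nt5dc1*), *Col18a1* (12.7%, with *Slc19a1*), *Col9a3* (11.8%, with *Tcfl5*), *Col1a2* (10.3%), *Col4a3* (8.46%) and *Col13a1* (7.35%, these 3 with noncoding genes). The strand setting of the counting is not given in the sources used here, so that these levels are uncertain to that extent.

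**Figure D1:**
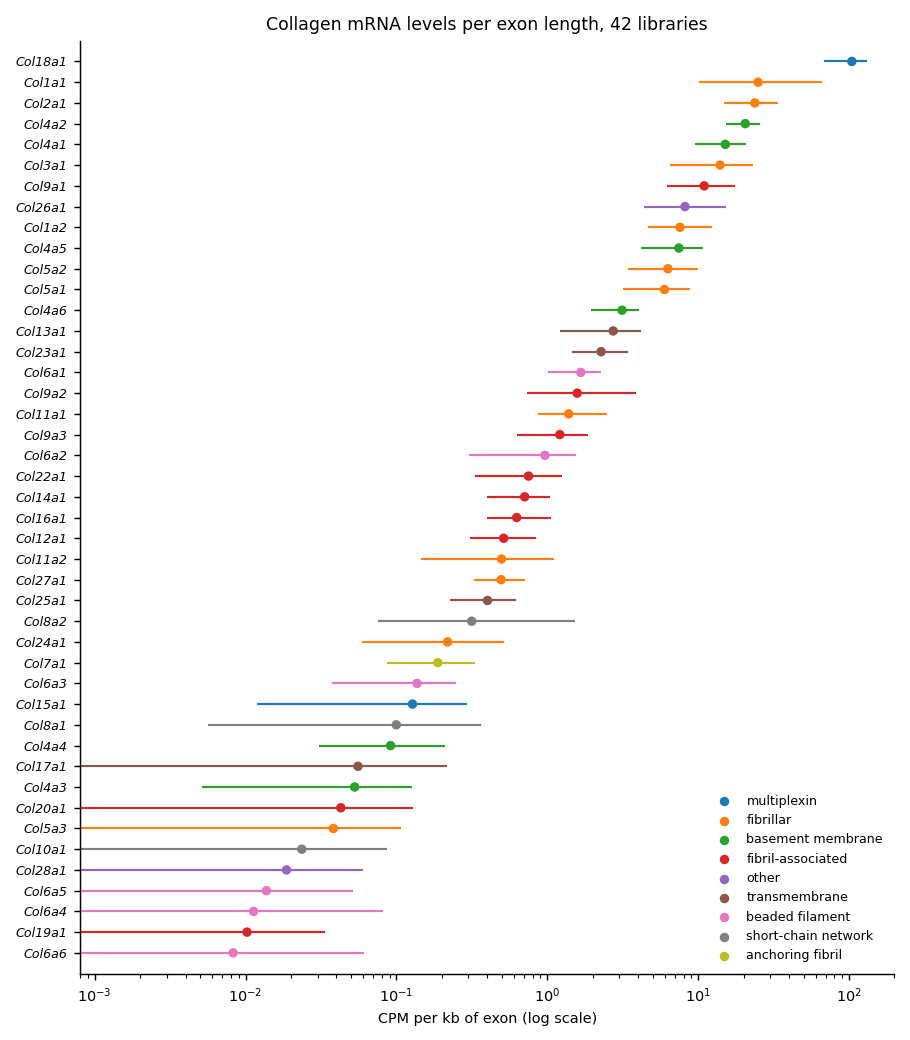
Mean level of each of the 44 collagens in CPM per kb of exon on a log axis, with lines from the lowest to the highest of the 42 libraries and colours for the class. *Col18a1* stands alone at 104 CPM per kb, and lines that reach the left edge belong to the 9 collagens with a count of 0 in at least 1 library.

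The summed collagen level showed how much of the transcriptome the family takes. In the wild types it was 2063 ± 318 CPM (left) against 2009 ± 151 CPM (right; SD, n = 5), and 2138 ± 222 and 2069 ± 156 CPM in the rightward mutants (n = 11). In the inverted mutants the left had 1970 ± 168 CPM and the right 2256 ± 144 CPM (n = 5). The ranges of the sides overlapped in all 3 groups. These ranges ignore the pairing of the sides, and a side difference of the sum was not tested.

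The first comparison asked which collagens differ between the sides when looping is normal in wild types. Of the 44 collagens, 39 passed the filter on low counts and none was called at an adjusted p under 0.05 by edgeR's quasi-likelihood test with the embryo as a block, as was 0.0% of all 23182 genes tested. At an unadjusted p under 0.05 there were 5 collagens, 4 of them with a ratio below 0, beside 2.76% of all genes. DESeq2 called 2 collagens and 0.082% of all genes. The median log2 ratio of right over left was -0.01 over the collagens tested and 0.00 over all genes tested. In simulated counts this fit recovered the lowest share of known changes, below the share asked. The lack of calls is therefore not evidence of equal sides.

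*Col1a1* had the smallest spread of ratios among 10 widely studied chains of the main types in wild types, with an SD of 0.14 on the log2 scale. Its left CPM in the 5 embryos were 170.3, 172, 323, 434 and 118.5, and its right CPM, in the same order, 119.6, 144, 214.5, 294 and 91.0. The left was higher in 5 of 5 embryos, although the ranges of the sides overlapped, since the embryos differed more from each other than their sides did. The fitted log2 ratio was -0.47 ± 0.06 (SE), with an adjusted p of 0.793 in edgeR and of 1.79e-09 in DESeq2, and the exact sign-flip test gave p = 0.0625, the smallest that 5 embryos allow. *Col3a1* was higher on the left in 5 of 5 embryos as well, by a log2 ratio of -0.33 ± 0.08 (adjusted p = 0.9998 in edgeR and 0.0304 in DESeq2). *Col1a2* was higher on the left in 4 of 5 (-0.27 ± 0.10), and *Col2a1* was higher on the right in 4 of 5 (0.25 ± 0.10, adjusted p = 0.9998 for both, edgeR). Of 13 genes listed for cross-linking and fibril assembly, 3 had a ratio above 0 in the wild types (*Fmod* with 0.26 ± 0.36 among them) and none was called. *Postn* had -1.24 ± 0.16 (adjusted p = 0.793) and *Dcn* -0.61 ± 0.17 (adjusted p = 0.9998, edgeR). The paper lists *Postn* among its signature genes, as left sided in a situs solitus cluster of wild types and mutants.

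Other fibrillar collagens varied more in wild types. For *Col5a2*, a chain of the type V collagen that nucleates fibrils, the left CPM were 66.8, 84.9, 103.7, 86.6 and 54.2 and the right CPM 49.9, 83.0, 52.0, 88.1 and 51.5. The left was higher in 4 of 5 embryos, by most in replicate 3, and the log2 ratio was -0.30 ± 0.15 (adjusted p = 0.9998, edgeR). By class, 7 of 11 fibrillar collagens, 2 of 6 type IV chains and 6 of 9 fibril-associated collagens had a ratio below 0, with none called.

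In the mutants with rightward looping, 38 collagens were tested and none was called by edgeR, against 0.0263% of all 22795 genes. At an unadjusted p under 0.05 there were 3, all with a ratio below 0, beside 3.59% of all genes. DESeq2 called 2, *Col4a4* and *Col5a1*, and 0.136% of all genes. The median log2 ratio was -0.02 over the collagens and 0.00 over all genes. *Col1a1* was not as uniform as in the wild types, with a ratio from -1.21 to 0.58 and the left higher in 6 of 11 embryos (-0.11 ± 0.13, adjusted p = 0.9999, edgeR). Its asymmetry against that of the wild types was not past the threshold (exact permutation test of the single-embryo ratios, p = 0.168).

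*Col4a4* had the largest difference between sides among the type IV chains of these mutants. On the left it ranged from 0.491 to 2.33 CPM with a median of 1.49, and on the right from 0.374 to 1.73 CPM with a median of 0.618. The left was higher in 10 of 11 embryos, with replicate 1 the exception, and the side ranges overlapped. The log2 ratio was -1.08 ± 0.21 (adjusted p = 0.375 in edgeR and 0.00158 in DESeq2, exact sign-flip p = 0.00195). *Col5a1*, the other type V chain, was higher on the left in 10 of 11 embryos too, with medians of 62.2 CPM (left) and 47.3 CPM (right) and a log2 ratio of -0.33 ± 0.08 (adjusted p = 0.885 in edgeR and 0.0171 in DESeq2, exact sign-flip p = 0.00879). *Col24a1*, a low fibrillar collagen, was higher on the left in 10 of 11 (-0.76 ± 0.21, adjusted p = 0.986, edgeR).

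**Figure D2:**
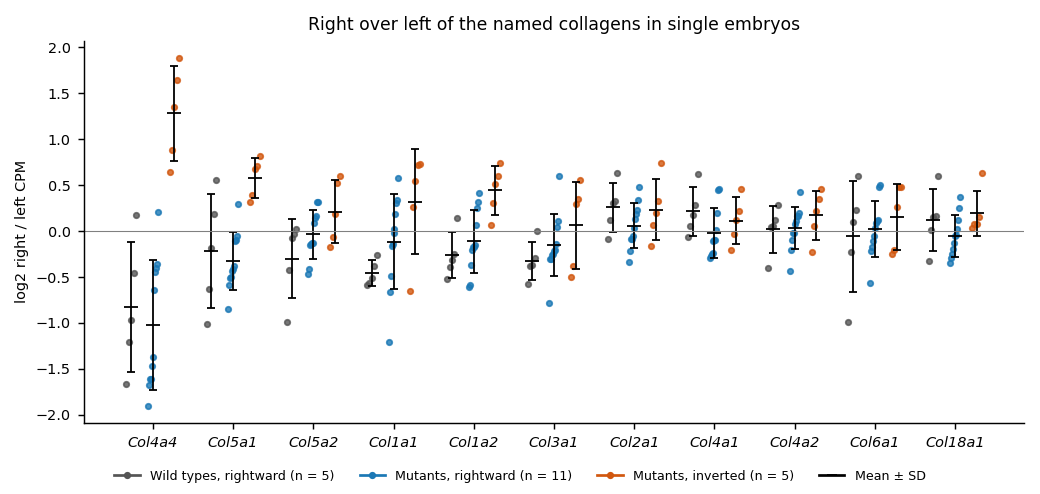
Log2 ratio of right over left CPM, with a prior count of 2, of the named collagens in each embryo, by group, with the mean ± SD. *Col4a4* lies between 0.64 and 1.88 in the 5 inverted mutants and between -1.90 and 0.20 in the 11 rightward mutants, and the *Col1a1* points of the 5 wild types all lie below 0.

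In the mutants with inverted looping, *Col4a4* and *Col5a1* were higher on the right. These were 2 of 40 collagens tested, or 2 up and 0 down, while 2.04% of all 22960 genes were called in either direction. A further 10 collagens had an unadjusted p under 0.05, for 12 in all, 9 with a ratio above 0 and 3 below, beside 15.1% of all genes. The median log2 ratio was 0.17 over the collagens tested and -0.01 over all genes, and 67.5% of the collagens had a ratio above 0 against 48.8% of all genes. Without the embryo as a block, 4 collagens were called, with *Col1a2* and *Col4a5* added, beside 1.33% of all genes. DESeq2 called 10 collagens, beside 8.84% of the 19844 genes to which it gave an adjusted p. With the 3 males alone neither *Col4a4* (1.52) nor *Col5a1* (0.47) was called (adjusted p = 0.208 for both, edgeR).

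*Col4a4* encodes a type IV chain of the specialised basement membranes of kidney, ear and eye, and its gene lies at chr1:82426144-82564800 on the minus strand of GRCm39. Its left CPM in the inverted mutants were 0.907, 0.814, 0.488, 0.351 and 0.651, and its right CPM, in the same order of embryos, 2.39, 1.54, 1.62, 1.41 and 1.04. Each right value lay above every left value. The counts behind them were low, from 14 to 50 on the left and from 47 to 153 on the right, in a gene that had between 14 and 153 counts in any of the 42 libraries. The log2 ratio was 1.34 ± 0.24 (adjusted p = 0.0314, edgeR), and the exact sign-flip test gave p = 0.0625, the smallest possible. With any 1 of the 5 embryos left out, the ratio stayed between 1.18 and 1.49 and the adjusted p rose to between 0.0634 and 0.0965, which ended the call each time.

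In wild types the same gene had 0.998, 1.999, 0.767, 0.987 and 0.919 CPM in the left libraries against 0.718, 0.601, 0.869, 0.403 and 0.446 CPM in the right ones. The left was higher in 4 of 5 embryos, and replicate 3 was the exception. The log2 ratio was -0.88 ± 0.30 (adjusted p = 0.9998, edgeR).

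Its neighbour *Col4a3*, which encodes a chain of the same trimer, had ratios above 0 in all 3 groups, none of them called. The canonical transcripts run in opposite directions from start sites 103 bases apart and overlap there, and 159 exon bases belong to both genes, 1.39% of those of *Col4a4*. *Col4a3* had log2 ratios of 0.38 ± 0.55 in the wild types, 0.34 ± 0.37 in the rightward mutants and 0.35 ± 0.30 in the inverted mutants, with adjusted p of 0.9998, 0.9999 and 0.655 (edgeR). It had between 2 and 51 counts per library, and its single-embryo ratios in the rightward mutants spread with an SD of 1.35.

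**Figure D3:**
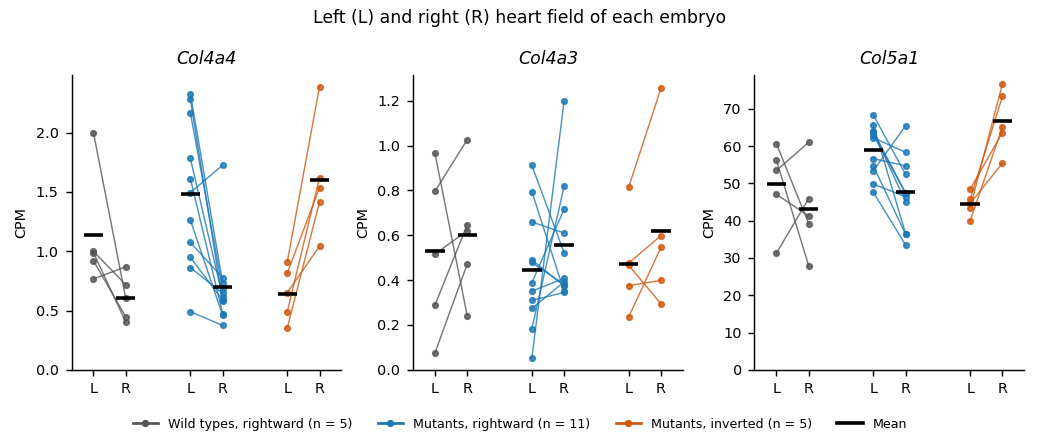
CPM of *Col4a4*, *Col4a3* and *Col5a1* in the left (L) and right (R) heart field, with a line for each embryo and a bar for the group mean. *Col4a4* and *Col5a1* lines fall from left to right in 10 of 11 rightward mutants and rise in 5 of 5 inverted mutants, while *Col4a3* lines cross in every group.

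*Col5a1* encodes the alpha 1 chain of type V collagen, which starts and limits the growth of type I fibrils. Its left CPM in the inverted mutants were 43.4, 48.4, 40.0, 44.6 and 45.8 and its right CPM 76.7, 63.6, 65.2, 55.4 and 73.3. Every right value again lay above every left value. The log2 ratio was 0.59 ± 0.08 (adjusted p = 0.0141, edgeR), and it lost the call without inverted mutant replicate 5 (0.57, adjusted p = 0.0787). In wild types its left CPM were 47.0, 60.7, 56.2, 53.5 and 31.3 and its right CPM 41.3, 39.2, 27.9, 61.0 and 45.9, with the left higher in 3 of 5 embryos (-0.22 ± 0.21, adjusted p = 0.9998, edgeR). This ratio ran from -0.41 to -0.02 with each wild type left out in turn.

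The partner chain *Col5a2* was not called in the inverted mutants. Its left CPM were 68.0, 70.5, 54.5, 72.7 and 67.3 and its right CPM 64.8, 62.5, 82.3, 82.9 and 96.5, higher on the right in 3 of 5 embryos (0.22 ± 0.12, adjusted p = 0.435, edgeR). Whether the ratios of both chains differ from each other was not tested. The genes lie on different chromosomes, *Col5a1* at chr2:27776397-27929526 on the plus strand and *Col5a2* at chr1:45412554-45542442 on the minus strand (GRCm39). The windows of 200 bases before their canonical start sites are shown because these chains build the same molecule and only 1 of them was called. Capitals mark the GC box GGGCGG and the SMAD core CAGAC on either strand.
Col5a1 (chr2:27776197-27776396, plus strand): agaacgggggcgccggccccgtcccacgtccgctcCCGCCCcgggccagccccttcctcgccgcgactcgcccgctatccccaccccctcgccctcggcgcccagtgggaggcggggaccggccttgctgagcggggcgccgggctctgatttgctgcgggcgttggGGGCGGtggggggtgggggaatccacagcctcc
Col5a2 (chr1:45542443-45542642, minus strand): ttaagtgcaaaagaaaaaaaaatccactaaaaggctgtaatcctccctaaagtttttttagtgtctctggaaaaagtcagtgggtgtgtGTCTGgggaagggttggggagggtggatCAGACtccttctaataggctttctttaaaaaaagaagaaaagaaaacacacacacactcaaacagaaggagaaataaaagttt
The *Col5a1* window holds 78% G or C and 2 GC boxes, and that of *Col5a2* 37.5% and none. GGGCGG occurs on either strand in 34.8% of the windows of 21757 protein-coding genes and in 21 of 44 collagens. CAGAC, a core of SMAD sites, occurs in 34.3% of the windows and in 15 collagens, *Col4a4*, *Col4a3* and *Col5a2* included. The motifs do not overlap in these sequences, and a match is a description of the letters.

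The remaining collagens of the inverted mutants did not pass the test in edgeR. DESeq2 did call *Col1a2*, *Col4a5*, *Col4a6*, *Col8a1*, *Col11a2*, *Col13a1*, *Col18a1* and *Col23a1*. Without the filter on low counts edgeR called *Col1a2*, *Col4a5*, *Col4a6* and *Col13a1* as well. All 6 type IV chains had a ratio above 0. *Col4a5* and *Col4a6*, neighbours on the X chromosome, were each higher on the right in 5 of 5 embryos, by 0.39 ± 0.08 and 0.38 ± 0.08 (adjusted p = 0.0533 and 0.0567, edgeR). *Col4a1* and *Col4a2* had 0.12 ± 0.09 and 0.18 ± 0.09, with the right higher in 3 and 4 of 5 (adjusted p = 0.574 and 0.412).

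*Col1a2* came close to the threshold. Its left CPM were 96.2, 77.4, 73.5, 75.7 and 84.3 and its right CPM 100.6, 95.4, 122.6, 114.9 and 120.4, higher on the right in 5 of 5 (0.45 ± 0.09, adjusted p = 0.0532, edgeR). It passed without inverted mutant replicate 1 (0.55, adjusted p = 0.0225). Its partner *Col1a1* had left CPM of 117, 146, 138, 128 and 150.3 and right CPM of 139.6, 93.2, 227, 186 and 250.1, with replicate 2 opposite to the others (0.34 ± 0.19, adjusted p = 0.455, edgeR). Without that replicate, *Col1a1* was called (0.58, adjusted p = 0.0353).

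Other members were not called by edgeR either, although DESeq2 called some of them, as given above. *Col18a1* had 782, 736, 685, 541 and 693 CPM in the left libraries against 802, 775, 725, 836 and 772 CPM in the right ones, with the right higher in 5 of 5 (0.20 ± 0.08, adjusted p = 0.289, edgeR). With each embryo left out in turn, its ratio ran from 0.08 to 0.24. *Col2a1* had a ratio of 0.24 ± 0.11 and *Col3a1* of 0.07 ± 0.16, with the right higher in 4 and 3 of 5 (adjusted p = 0.351 and 0.880). Leaving out each embryo in turn moved *Col2a1* between 0.10 and 0.34 and *Col3a1* between -0.05 and 0.22, so that the direction of *Col3a1* turned. *Col6a1*, a chain of the beaded filaments, had 0.16 ± 0.14 with the right higher in 3 of 5 (adjusted p = 0.678, edgeR). Unadjusted p under 0.05 with a ratio above 0 were also found for *Col13a1* (0.59 ± 0.13), *Col8a1* (1.14 ± 0.34) and *Col12a1* (0.39 ± 0.15), and with a ratio below 0 for *Col11a2* (-0.62 ± 0.20), *Col23a1* (-0.34 ± 0.11) and *Col9a1* (-0.22 ± 0.10), at adjusted p from 0.0653 to 0.327 (edgeR).

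**Figure D4:**
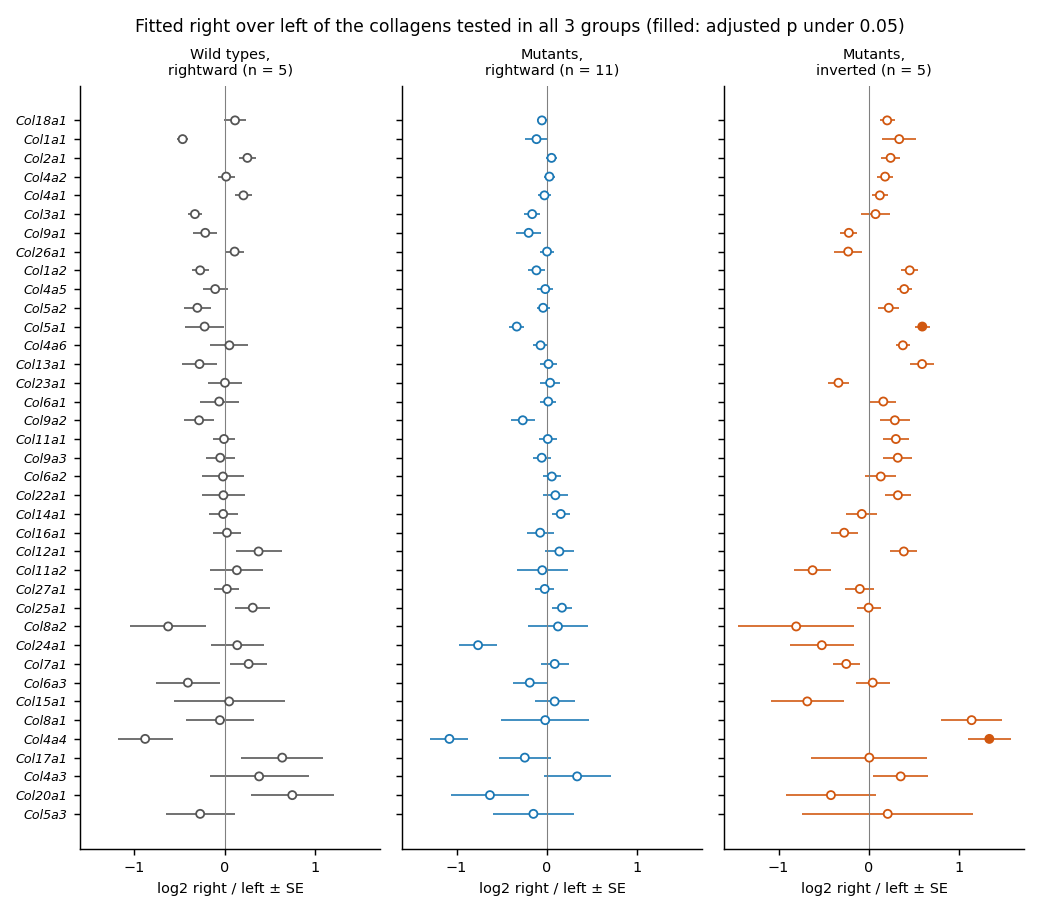
Fitted log2 ratio of right over left ± SE of the 38 collagens that were tested in all 3 groups, ordered by level per kb, with filled circles at an adjusted p under 0.05 in edgeR. Filled circles are *Col4a4* and *Col5a1* in the inverted mutants.

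Markers of other cell types moved with the side in the inverted mutants. The 6 heart muscle markers summed to 1151 to 2226 CPM in left libraries and 2216 to 4633 CPM in right ones, higher on the right in 5 of 5 embryos, and 5 of the 6 were called there. The 4 neural tube markers summed to 45.5 to 81.9 CPM in left libraries and 11.1 to 46.6 CPM in right ones, lower on the right in 5 of 5, with *Pax6* and *Nkx6-1* called. The sums of the second heart field and venous pole markers were higher on the right in 5 of 5 as well, with *Mef2c* and *Tbx5* called. The 5 endothelial markers were higher on the right in 5 of 5 by a mean log2 ratio of 0.24 ± 0.06 (SD), none called. The sum of the 5 paraxial mesoderm and sclerotome markers was higher on the right in 1 of 5, with a mean log2 ratio of -0.60 ± 0.49 (SD). None of these 5 had a fitted ratio above 0 and none was called. The asymmetry of *Tcf15* of this list and of the endothelial *Tek* differed from that of the wild types in edgeR's interaction test. In the wild types and in the rightward mutants no marker of the 11 lists was called, and the heart muscle sum was higher on the right in 3 of 5 and in 5 of 11 embryos. The sides of single embryos differed widely there. The log2 ratio of the heart muscle sum had an SD of 1.07 in the wild types and 0.81 in the rightward mutants, against 0.27 in the inverted mutants. Of all listed markers, *Sox1*, *Foxd3* and *Noto* were at 0 in some libraries. The part of these cell types in the collagen ratios was not tested.

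The next comparison asked whether the asymmetry itself differs with the direction of looping. Between inverted and rightward mutants, 2 of 44 collagens differed in edgeR's interaction test, *Col4a4* and *Col5a1*, against 0.311% of all 26335 genes. The difference for *Col4a4*, inverted minus rightward, was 2.40 ± 0.37 on the log2 scale (adjusted p = 0.00249), and the single-embryo ratios of the groups did not overlap (exact permutation test, two-sided, p = 0.000229, the smallest these groups allow). It stayed called with each of 16 embryos left out in turn, between 2.26 and 2.56, and was not called with males alone (2.68, adjusted p = 0.0807, edgeR). The difference for *Col5a1* was 0.91 ± 0.19 (adjusted p = 0.0361), again with no overlap (exact permutation p = 0.000229), but it was lost in 13 of 16 leave-outs, with adjusted p up to 0.15. Both genes were picked out by the fit of these same embryos, so that the permutation p and the missing overlap are no separate support. How many of all genes lack overlap was not counted. For *Col1a2* the difference was 0.56 ± 0.15 (adjusted p = 0.132, edgeR). At an unadjusted p under 0.05 there were 7 collagens, all above 0, beside 10.5% of all genes, and DESeq2 called 2 collagens beside 1.96% of the genes to which it gave an adjusted p.

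Against the wild types, the inverted mutants differed in 1 of 44 collagens, with 0.513% of all genes called. *Col4a4* differed by 2.20 ± 0.43 (adjusted p = 0.0188, edgeR). The groups did not overlap (exact permutation p = 0.00794), again in the embryos that gave the call and so without separate support. The call was lost without wild type replicate 2 (1.98, adjusted p = 0.068) and without inverted mutant replicates 4 or 5. Not past the threshold were *Col5a1* with 0.80 ± 0.23 (adjusted p = 0.110, edgeR), *Col13a1* with 0.85 ± 0.23 (adjusted p = 0.0980, edgeR) and *Col1a2* with 0.71 ± 0.18 (adjusted p = 0.0738, edgeR), all of which DESeq2 called. DESeq2 called 4 collagens beside 4.61% of the genes to which it gave an adjusted p, and 8 collagens had an unadjusted p under 0.05 beside 13.6% of all genes. The rightward mutants and the wild types differed in none of the 44 collagens, with 0.0% of all genes called, 1 collagen at an unadjusted p under 0.05 (*Col24a1*, -0.90 ± 0.42) beside 3.04% of all genes, and none in DESeq2 (0.0%). The 2 comparisons with the inverted mutants share these embryos, and those with the wild types share theirs.

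Levels were then compared on each side. On the left, 42 collagens were tested between rightward mutants and wild types and none was called (0.0242% of all 24838 genes). There 8 had an unadjusted p under 0.05, 6 with a difference above 0 and 2 below, beside 5.02% of all genes. Of the collagens tested, 66.7% had a difference above 0 against 51.3% of all genes, with a median log2 difference of 0.16. The largest of the named members was *Col1a1*, below 0 at -0.72 ± 0.26 (adjusted p = 0.978, edgeR), from 118.5 to 434 CPM in the wild types and from 91.0 to 276 CPM in the mutants. On the right, none of 43 was called (0.0121% of 24859 genes), none had an unadjusted p under 0.05 (3.28% of all genes), and DESeq2 called none on either side (0.108% of genes on the left and 0.0242% on the right).

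Between inverted and rightward mutants no collagen was called on the left (0.0121% of all genes) or on the right (0.00805%), with 5 and 4 at an unadjusted p under 0.05, beside 7.89% and 4.26% of all genes. The log2 difference of *Col4a4*, inverted over rightward, was -1.19 ± 0.31 on the left (adjusted p = 0.397) and 1.24 ± 0.26 on the right (adjusted p = 0.295, edgeR), and DESeq2 called it on both sides, beside 0.339% of genes on the left and 0.0821% on the right. Without rightward mutant replicate 1 edgeR called it on the right (adjusted p = 0.0109). Its means (left, then right) were 0.642 ± 0.228 and 1.60 ± 0.493 CPM in the inverted mutants, and 1.48 ± 0.617 and 0.696 ± 0.362 CPM in the rightward mutants. *Col5a1* had -0.40 ± 0.11 on the left and 0.51 ± 0.14 on the right (adjusted p = 0.397 and 0.9996, edgeR).

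Type IV chains are encoded in pairs that start head to head, and the question was whether neighbours share their ratio from embryo to embryo. The start sites are 317 bases apart for *Col4a1* and *Col4a2* on chromosome 8 and 1282 bases apart for *Col4a5* and *Col4a6* on the X chromosome. Over the 11 rightward mutants, the log2 ratios of *Col4a1* and *Col4a2* had Pearson's r = 0.758 (permutation p = 0.0054, adjusted 0.0384) and Spearman's rho = 0.745 (permutation p = 0.0113, adjusted 0.0508), and r = 0.662 without the 2 embryos farthest from the median. For *Col4a5* and *Col4a6*, r was 0.742 (permutation p = 0.00853, adjusted 0.0384), rho was 0.836 (permutation p = 0.00225, adjusted 0.0202) and r without the farthest 2 was 0.789. Both genes of a pair are read from the same libraries, and *Col4a1* and *Col4a2* share 311 exon bases, 4.17% of those of *Col4a1*.

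*Col4a3* with *Col4a4* was not among the 9 pairs tested, and no correlation was computed for it. The other 7 of the 9 pairs did not pass the adjustment. *Col1a1* and *Col1a2*, which build type I collagen together, had r = 0.653 (permutation p = 0.0285, adjusted 0.0855) and rho = 0.627, but r fell to 0.245 without the farthest 2 embryos. *Col6a1* and *Col6a2* had r = 0.560 (permutation p = 0.0755, adjusted 0.170), and *Col5a1* and *Col5a2* had r = 0.378 (permutation p = 0.252, adjusted 0.453). Pairs of *Col1a1* with *Col3a1*, *Col2a1* and *Col4a1* and of *Col3a1* with *Col5a2* lay between -0.023 and 0.268.

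**Figure D5:**
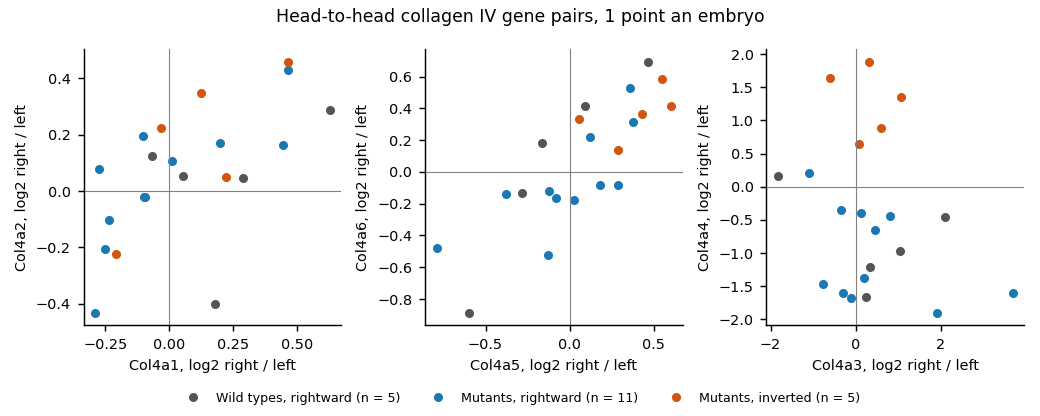
Log2 ratio of right over left of the head-to-head type IV gene pairs, 1 point for each of 21 embryos, coloured by group. The points of *Col4a1* with *Col4a2* and of *Col4a5* with *Col4a6* run upwards (r = 0.758 and 0.742 in the rightward mutants), while *Col4a4* parts the inverted from the rightward embryos at any value of *Col4a3*.

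Genes that make, carry, cross-link, bind or break down collagen were described from 6 lists of 79 genes. In the wild types and the rightward mutants none of the 74 tested was called. In the inverted mutants 6 of 74 were called, all higher on the right, where 2.04% of all genes were called in either direction. *P3h1* (0.30 ± 0.05, adjusted p = 0.0292) and *Fkbp10* (0.37 ± 0.07, adjusted p = 0.0340), from the list of hydroxylation and folding, act on new chains in the endoplasmic reticulum. *Sec24d* (0.66 ± 0.09, adjusted p = 0.0116, edgeR) belongs to the vesicle coat that exports procollagen.

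The basement membrane partners held the other 3. *Lama4*, a laminin chain, had 0.64 ± 0.08 (adjusted p = 0.00753), *Nid2*, which links laminin to type IV collagen, had 0.54 ± 0.07 (adjusted p = 0.00887), and *Hspg2*, perlecan, had 0.42 ± 0.07 (adjusted p = 0.0193, edgeR). All 12 genes of that list had a ratio above 0 there, with a median of 0.27 against -0.01 over all genes, while 3 of 12 had one in the wild types and 3 of 12 in the rightward mutants. None of the 6 called genes passed the test of the difference between inverted and rightward mutants, in which *Nid2* had 0.58 ± 0.13 (adjusted p = 0.0584, edgeR). Against the wild types, the difference was called for *Sec24d*, *Lama4* and *Nid2*.

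Other enzymes and receptors were not called in any group. *Serpinh1*, the collagen chaperone, was at 2313 ± 199 CPM and had a ratio of 0.21 ± 0.05 in the inverted mutants (adjusted p = 0.0990, edgeR). *Itgb1*, the beta chain of the collagen-binding integrins, had 0.22 ± 0.06 there (adjusted p = 0.112). The prolyl hydroxylase *P4ha1* (-0.04 ± 0.05), the cross-linking enzyme *Lox* (0.11 ± 0.27) and the collagen receptor *Ddr2* (-0.16 ± 0.16) had adjusted p from 0.709 to 0.895 (edgeR).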

How the data were processed

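Left and right heart field libraries of polyadenylated RNA came from each of 21 mouse embryos. The authors cut adapters, discarded duplicates, mapped reads to GRCm39 by STAR, counted them by featureCounts (Subread 2.0.6 in the submitters' processing notes) and deposited whole-number counts per gene without normalization. The strand setting is not given in the sources used here. Names, exons and start sites came from GENCODE, which held 56310 of 56953 identifiers, and sequences from the GRCm39 genome.

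Groups followed genotype and looping in the labels. Genes were kept by filterByExpr with the limits of the study (a minimum count of 5, a minimum total of 10, large.n at 50 and a proportion of 0.2). edgeR 4.0.16 in R 4.3.3 scaled by TMM and ran the quasi-likelihood test, with Benjamini-Hochberg adjustment over all genes at a threshold of 0.05. Right over left was fitted per group with a block for the embryo, the asymmetry of groups was compared by interactions in all 42 libraries, and levels per side carried sex as a covariate. Values after ± are SE for fitted ratios and SD otherwise. The SE was derived from the test, as the absolute ratio divided by the square root of its F statistic. Sides of an embryo are paired by the labels, and their deviations from the group means over 9656 genes correlated with a median of 0.459 (from -0.0761 to 0.726, above 0.1 in 18 embryos). Ratios per embryo used a prior count of 2. Embryos are the replicates. No libraries of a group agreed within sampling noise (lowest chi-square per degree of freedom 7.18).

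Alternatives were DESeq2 1.42.0, no block, no filter, library size alone, 1 fit of all libraries, males alone, no sex term and leaving out each embryo. The fits were tried on simulated counts with known changes. Recovery was lowest for the wild-type pairs, where it stayed below the share asked of each fit. The other fits reached that share.

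Members, lists and named genes were chosen with earlier results of these data known. Named were the collagens called in any comparison and 10 chains picked by hand from the main types (*Col1a1*, *Col1a2*, *Col2a1*, *Col3a1*, *Col4a1*, *Col4a2*, *Col5a1*, *Col5a2*, *Col6a1*, *Col18a1*), which are not the 10 most abundant, with the others by class. Further collagens given with a ratio were chosen after their values were seen.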

Additional observations from a re-analysis of the deposited data

Results flagged for a closer look

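Values of 5 embryos were examined for 1 value far from the rest in 66 sets of the named collagens, and 3 were found, where chance gives about 1 in 20 sets. *Col4a4* stood at 2.00 CPM on the left of wild type replicate 2, against 0.767 to 0.998 CPM in the other 4. *Col2a1* stood at 149.8 CPM on the right of wild type replicate 3, against 219.7 to 247 CPM. *Col18a1* had a log2 ratio of right over left of 0.63 in inverted mutant replicate 4, against 0.04 to 0.16 in the others.

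The asymmetry of 2 collagens differed between groups by the interaction test. For *Col4a4* the difference was 2.40 between inverted and rightward mutants and 2.20 between inverted mutants and wild types. For *Col5a1* it was 0.91 between inverted and rightward mutants.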

How the results depend on the processing

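With DESeq2 the number of collagens called was 2 in wild types and 2 in rightward mutants (0 each in edgeR), 10 in inverted mutants (2 in edgeR), 4 for the asymmetry of inverted mutants against wild types (1 in edgeR), and 1 on the left and 1 on the right for inverted over rightward levels (0 each in edgeR). The genes called by DESeq2 over all genes numbered 19, 31, 1755, 885, 84 and 16 in these comparisons, against 0, 6, 468, 135, 3 and 2 in edgeR. Without the filter on low counts it was 6 in inverted mutants (2.37% of all genes) and 2 for inverted against wild types (0.462%). With males alone it was 0 in inverted mutants (0.23%) and 0 for both differences of asymmetry with them (0.0262% and 0.0112%), where *Col4a4* had 1.52, 2.68 and 2.17 on the log2 scale against 1.34, 2.40 and 2.20 in all embryos, and 3 of 5 inverted mutants were male. Library size alone gave 1 for inverted minus rightward (0.277%), and 1 fit of all libraries gave 1 in inverted mutants (0.535%). In the inverted mutants the fit with no replicate block called 4 collagens, beside 1.33% of all genes against 2.04% with the block. The added *Col1a2* and *Col4a5* were close to the threshold with the block. In the other groups it called 0, as with the block. Leaving out 1 embryo gave 0 to 3 collagens in inverted mutants, 1 to 2 for inverted minus rightward, 0 to 4 for inverted against wild types and 0 to 1 for inverted over rightward on the right. The cause was not tested. No direction of a named collagen with a call reversed. Counts of *Col4a4* from 14 to 153 per library limit its precision.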
